A study of Mus musculus with 8 samples.

Results

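The vascular tone genes examined here are 8 genes that make or sense the endothelial signals setting the width of lung vessels. They were chosen by name, Nos3, Ptgis, Ptgs1 and Ptgs2 on the dilator side and Edn1, Ece1, Ednra and Ace on the constrictor side, and the brightest probe set of each was taken. The array annotation used here named 6 of the 8, out of 19505 genes with a symbol, each by 1 probe set. Ptgs1 and Ednra were not analysed here. RNA came from lung endothelial cells (EC) of C57BL/6N mice that carried subcutaneous Lewis lung carcinoma (LLC) tumors and received either control IgG (n = 4 mice) or an antibody that blocks TIE1, called anti-TIE1 here as in the sample titles (n = 4 mice). LLC is a mouse lung cancer line, and TIE1 is an orphan receptor of endothelial cells that acts with the angiopoietin receptor TIE2. Mice were 8 weeks old at tumor cell injection, antibody or IgG was given intraperitoneally at 40 mg/kg 2 times per week, starting 1 day after the tumor cells, and lung EC were sorted for CD31 and against CD45, LYVE1, PDPN, TER119 and DAPI on day 14. There was no group without a tumor, so every value below is from lungs of tumor-bearing mice. All 4 treated samples carry TIE1 in their titles, although the antibody field of 3 of them names another TIE number, and the titles were followed.

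In the pulmonary circulation, endothelial nitric oxide synthase (Nos3) and prostacyclin relax the smooth muscle below the endothelium. Prostacyclin is made in steps, a cyclooxygenase (Ptgs1 or Ptgs2) acting first and prostacyclin synthase (Ptgis) last. Endothelin-1, encoded by Edn1, is released as an inactive precursor that endothelin-converting enzyme (Ece1) cleaves, and its receptor Ednra on smooth muscle drives constriction. Angiotensin-converting enzyme (Ace), abundant on lung capillaries, produces the constrictor angiotensin II and degrades the dilator bradykinin. RNA levels of these genes do not measure the activity of the enzymes.

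Promoter sequences of 4 measured members were at hand from RefSeq (build GRCm38.p6). One window is shown for each, Edn1 and Ptgs2 as genes known for rapid induction, Ece1 as the member with the smallest p, and Ace as a gene with a steady high signal. Each run covers 250 bases before to 30 bases after an annotated start, 5′ to 3′ on the plus strand, and capitals mark the motif matches listed after the sequences. Ece1 has 4 annotated start windows and Ace 2, and the ones printed are those with a match.
Edn1 chr13:42301226-42301505: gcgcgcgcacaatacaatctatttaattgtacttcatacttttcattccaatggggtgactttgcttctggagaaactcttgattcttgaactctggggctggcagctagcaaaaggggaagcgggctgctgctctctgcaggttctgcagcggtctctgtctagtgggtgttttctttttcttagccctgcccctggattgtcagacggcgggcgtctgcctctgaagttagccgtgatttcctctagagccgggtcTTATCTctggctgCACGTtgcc
Ptgs2 chr1:150099781-150100060: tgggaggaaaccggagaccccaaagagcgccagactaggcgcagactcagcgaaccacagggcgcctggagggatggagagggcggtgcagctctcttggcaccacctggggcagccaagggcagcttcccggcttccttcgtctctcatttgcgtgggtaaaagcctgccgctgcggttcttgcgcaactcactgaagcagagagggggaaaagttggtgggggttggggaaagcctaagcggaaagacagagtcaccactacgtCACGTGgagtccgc
Ece1 chr4:137913308-137913587: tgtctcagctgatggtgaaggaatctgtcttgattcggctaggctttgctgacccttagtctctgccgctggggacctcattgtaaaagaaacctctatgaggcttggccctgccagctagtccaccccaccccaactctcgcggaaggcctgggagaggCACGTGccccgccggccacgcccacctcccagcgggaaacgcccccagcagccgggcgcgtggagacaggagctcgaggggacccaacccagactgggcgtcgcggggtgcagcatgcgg
Ace chr11:105967698-105967977: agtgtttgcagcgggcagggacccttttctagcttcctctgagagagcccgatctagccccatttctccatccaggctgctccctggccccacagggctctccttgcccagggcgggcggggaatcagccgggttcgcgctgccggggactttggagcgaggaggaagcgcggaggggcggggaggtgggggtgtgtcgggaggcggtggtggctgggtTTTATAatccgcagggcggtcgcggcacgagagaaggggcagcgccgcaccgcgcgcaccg
Motifs were searched on both strands in windows of 300 bases. The Edn1 window held a GATA match (AGATAA, read here as TTATCT on the reverse strand) from position 9 after the start, a motif found in 11.2% of all 32851 windows. It also held the hypoxia response core ACGTG on the reverse strand from position 22, found in 19.6% of windows. In Ptgs2 an E-box (CACGTG, present in 7.15% of windows) began at position 17 and contains the hypoxia response core on both strands. The same E-box lay at position -90 in the Ece1 window. The Ace window held a TATA box (TATAAA, reverse strand, 13.6% of windows) at position -31. No match to the AP-1 motif TGANTCA (7.81% of windows) or to the NF-kB consensus (4.51% of windows) was found in the windows of these members. These matches describe the letters only, since no binding was measured.

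Values are log2 of array intensities that had been normalized between arrays before deposition. Of 22204 probe sets tested with limma none passed an adjusted p under 0.05 (0% called), against 482 with a higher and 700 with a lower mean in anti-TIE1-treated mice when the unadjusted p had to be under 0.05 (5.32% called in all, 2.17% higher and 3.15% lower). The exact Mann-Whitney test likewise called 0 after adjustment and 307 higher and 396 lower unadjusted. Without array IgG 4 limma called 18 probe sets at an adjusted p under 0.05, and none of the 6 measured tone genes was among them. Spike-in controls added at hybridization separated 4 arrays (replicates 1 and 2 of IgG with 3 and 4 of anti-TIE1, at 10.40 to 10.51) from the other 4 (10.79 to 11.05), so values within each of these parts are given where they differ in sign. All 9 measured endothelial markers, Cdh5 and Pecam1 among them, and all 10 lung capillary markers lay above the brightest of 23 background probe sets on every array, while 0 of 9 leukocyte markers and 0 of 8 markers of liver endothelium and hepatocytes did. Markers of some other cell types also did, 7 of 10 platelet, 5 of 7 lymphatic, 4 of 9 alveolar type 2 and 3 of 5 alveolar type 1 markers. Sftpc, of alveolar type 2 cells, averaged 11.73 on IgG and 12.11 on anti-TIE1 arrays. The labels name lung as the source and their tissue protocol speaks of liver, and the lung capillary but not the liver markers were above background. The endothelial marker list averaged 11.35 to 11.44 on IgG and 11.40 to 11.44 on anti-TIE1 arrays. Averages of some other marker lists had different means in the 2 groups, which was not tested. The platelet and alveolar type 2 ranges overlapped, and the lymphatic ranges did not. Over all probe sets 48.2% had a higher and 51.8% a lower mean. The platelet list was at 8.40 to 9.005 on IgG and 8.31 to 8.49 on anti-TIE1 arrays, with 9 of 10 measured genes lower in mean. The lymphatic list was at 9.14 to 9.51 and 9.02 to 9.09, with 5 of 7 lower. At an unadjusted p under 0.05 from limma 4 of the 7 were lower and 0 higher, beside 3.15% and 2.17% of all probe sets. None passed after adjustment. These 4 were Ccl21a, Mmrn1, Reln and Prox1, with log2 differences of -0.60, -0.82, -0.48 and -0.40. In each of them the groups did not overlap, as in 1.78% of all probe sets with lower values. The sort was against the lymphatic surface proteins LYVE1 and PDPN, yet Lyve1 RNA was bright in both groups, at a mean of 11.957 and 11.998 (log2 difference 0.041, standard error 0.09), and Pdpn was at 8.26 and 8.09. The alveolar type 2 list was at 8.51 to 8.97 and 8.84 to 9.31, with 8 of 9 higher. At an unadjusted p under 0.05 from limma 4 of the 9 were higher and 0 lower, and 0 passed after adjustment. Sftpb had the largest difference of the list, 1.08 (standard error 0.35), with overlapping groups. On IgG 1 and IgG 2 it was below the brightest background probe set. The part of these other cell types in the values of the tone genes was not tested. In RNA of a sorted population, fewer cells of a type and less RNA per cell cannot be told apart. All 6 measured tone genes were above the brightest background probe set on all 8 arrays, Ptgs2 by the smallest margin (0.11).

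**Figure D1:**
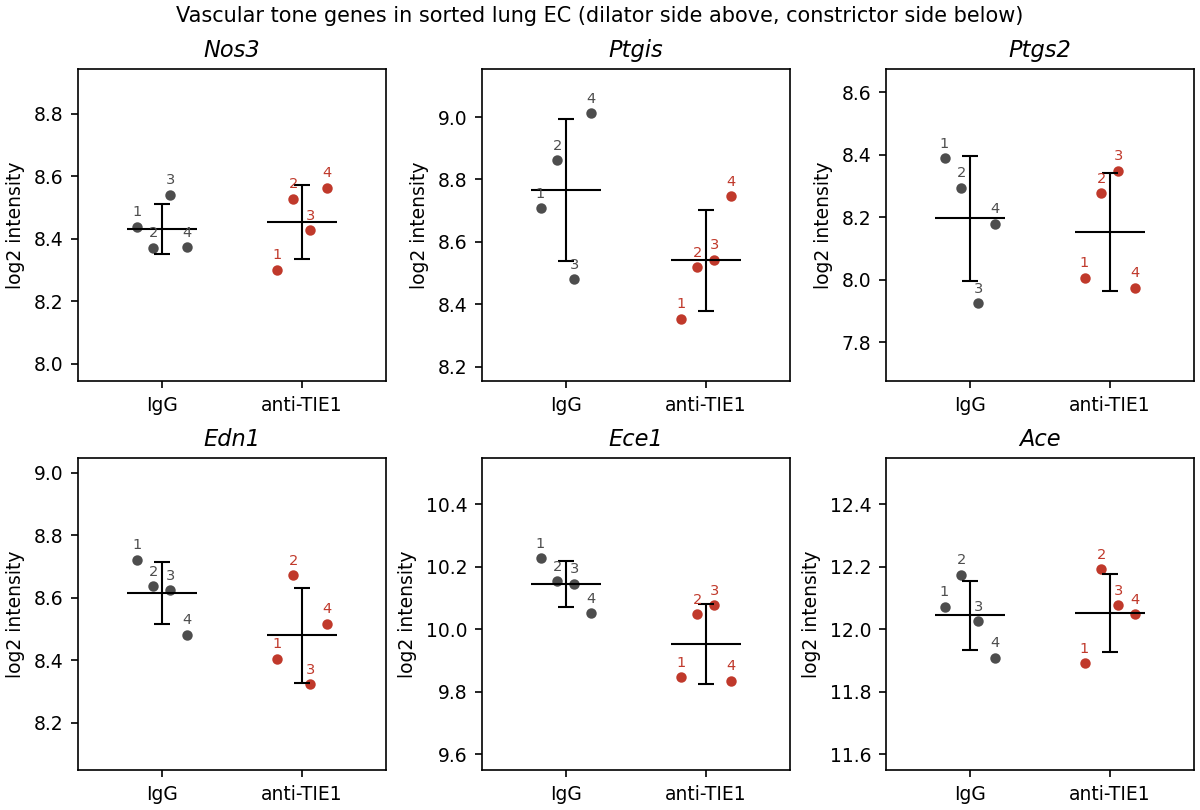
Log2 intensity of the 6 measured tone genes on each array; points are single mice labelled by replicate number, the horizontal line is the mean and the bar 1 SD (n = 4 per group). Each panel spans 1 unit of log2. The groups overlap in every panel, and in Ece1 all 4 anti-TIE1 points lie below the IgG mean of 10.14.

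Ece1, the enzyme that activates endothelin-1, gave the smallest p among these genes. Its log2 intensity was 10.23, 10.15, 10.15 and 10.05 on IgG arrays 1 to 4 and 9.85, 10.05, 10.08 and 9.83 on anti-TIE1 arrays 1 to 4. All 4 treated mice were below the IgG mean and 3 of them below the lowest IgG mouse, with the groups overlapping at IgG 4 and anti-TIE1 3. The means were 10.14 ± 0.07 (SD, n = 4) and 9.95 ± 0.13 (SD, n = 4), a log2 difference of -0.19 (standard error 0.08), that is a factor of 0.875. Limma gave an unadjusted p of 0.040 and an adjusted p of 0.93 over all probe sets, and the exact two-sided permutation test over 70 arrangements gave p = 0.0571. Ece1 was thus not called. It was the only one of the 6 measured tone genes at an unadjusted p under 0.05, where 5.32% of all probe sets were. The difference was -0.24 within the arrays with low and -0.15 within those with high spike-in controls.

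Edn1, the endothelin-1 precursor, was at 8.72, 8.64, 8.62 and 8.48 on the IgG arrays and at 8.40, 8.67, 8.32 and 8.52 on the anti-TIE1 arrays. anti-TIE1 1 and 3 were below every IgG mouse, while anti-TIE1 2 was above all IgG mice but IgG 1. The log2 difference was -0.14 (standard error 0.09, 95% interval -0.34 to 0.07), with an adjusted p of 0.965 from limma and p = 0.20 in the exact permutation test. It was -0.26 within the arrays with low and -0.014 within those with high spike-in controls.

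Ace had nearly the same mean in both groups. Its log2 intensity was 12.07, 12.17, 12.03 and 11.91 in IgG-treated and 11.89, 12.19, 12.08 and 12.05 in anti-TIE1-treated mice. anti-TIE1-treated mice held both the lowest and the highest value of all 8. The means were 12.05 ± 0.11 (SD, n = 4) and 12.05 ± 0.12 (SD, n = 4), and the 95% interval of the difference ran from -0.19 to 0.20 on the log2 scale, or from -12.1% to 14.8% (adjusted p = 1.00 from limma). The sign of so small a difference (0.0065) turned with the array part, at -0.061 and 0.074, and with quantile normalization.

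On the dilator side, Ptgis had the largest mean difference of the 6 genes and also the widest spread. Prostacyclin synthase RNA was at 8.71, 8.86, 8.48 and 9.01 on the IgG arrays and at 8.35, 8.52, 8.54 and 8.75 on the anti-TIE1 arrays. Every treated mouse was below the IgG mean, but IgG 3 lay below 3 of the 4 treated mice. The log2 difference was -0.22 (standard error 0.12, 95% interval -0.50 to 0.05), a factor of 0.856. Neither limma (adjusted p = 0.954) nor the exact permutation test (p = 0.20) called it. The difference shrank to -0.14 without IgG 4 and grew to -0.32 without IgG 3. Fibroblasts and smooth muscle also make prostacyclin. Their marker lists averaged 7.33 to 7.59 and 7.30 to 7.59 on IgG arrays and 7.35 to 7.56 and 7.42 to 7.47 on anti-TIE1 arrays. IgG 4 was highest of the 8 in both lists, as it was in Ptgis. Other arrays went the other way. IgG 2, at 8.86 in Ptgis, was lowest of the 8 in both lists. The array lowest in Ptgis, anti-TIE1 1, had the highest fibroblast average of the treated mice, 7.56. Of these lists 2 of 7 and 2 of 14 measured genes exceeded the brightest background probe set on every array, and their part in the Ptgis values was not tested.

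Nos3, whose product makes the nitric oxide of the endothelium, did not differ detectably between treatments. It was at 8.44, 8.37, 8.54 and 8.37 in IgG-treated and 8.30, 8.53, 8.43 and 8.56 in anti-TIE1-treated mice. This was the narrowest spread among the 6 genes, with a range of 0.26 over all mice. The difference was 0.024 on the log2 scale (standard error 0.08), and its 95% interval in percent ran from -10.2% to 15.1% (adjusted p = 0.996 from limma). Within the 2 array parts it was 0.090 and -0.042.

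Ptgs2, the inducible cyclooxygenase, had a spread within each group larger than the difference between them. Values were 8.39, 8.29, 7.93 and 8.18 on the IgG arrays and 8.01, 8.28, 8.35 and 7.97 on the anti-TIE1 arrays. All 4 treated values fell within the IgG range. The log2 difference was -0.045 (standard error 0.12, 95% interval -0.31 to 0.22, adjusted p = 0.992 from limma), at -0.18 and 0.089 within the 2 array parts.

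**Figure D2:**
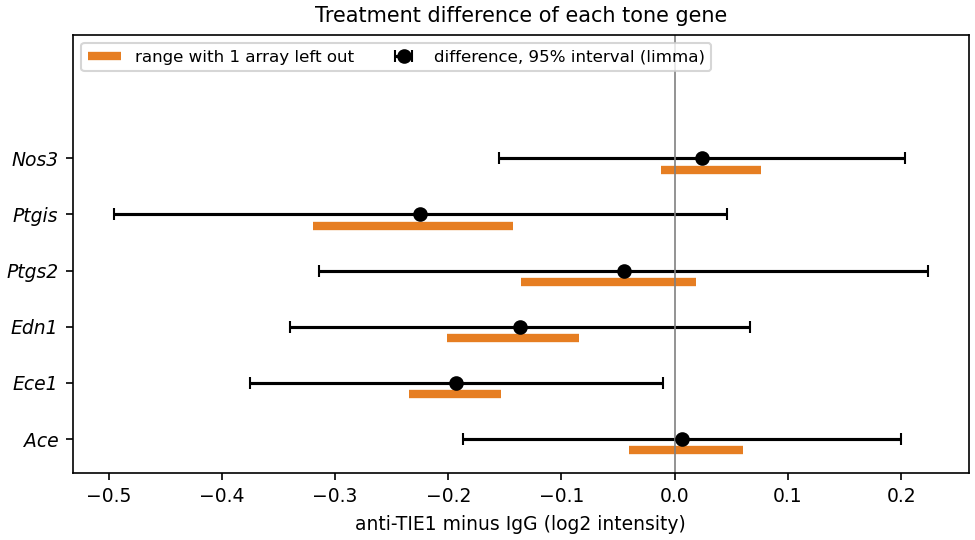
anti-TIE1 minus IgG difference of each gene (log2 intensity) with its 95% interval from limma (black) and the range of the difference when any 1 array is left out (orange). Ece1, Edn1 and Ptgis stay below 0 with any array left out, while the ranges of Nos3, Ptgs2 and Ace cross 0.

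Ece1, Edn1, Ptgis and Ptgs2 had lower and Nos3 and Ace higher mean values in anti-TIE1-treated mice, and the groups of 0 of the 6 genes were separated without overlap (3.17% of all probe sets were, 1.38% with higher and 1.78% with lower values). The median difference of the 6 genes was -0.091, beside -0.0045 over all probe sets. anti-TIE1 1 was lowest of all 8 arrays in 3 of the 6 genes (Nos3, Ptgis and Ace) and among the 3 lowest in all 6. IgG 1 was highest in 3 (Edn1, Ece1 and Ptgs2). IgG 4 combined the highest Ptgis with the lowest Edn1, Ece1 and Ace of the IgG mice.

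Dilator genes were set against constrictor genes by averaging the 3 measured genes of each side per array. The dilator average was 8.46 ± 0.10 (log2 intensity, SD, n = 4) in IgG-treated and 8.38 ± 0.11 (SD, n = 4) in anti-TIE1-treated mice. The constrictor average was 10.27 ± 0.09 (SD, n = 4) and 10.16 ± 0.11 (SD, n = 4). Both sides were thus lower by similar amounts, -0.082 and -0.11, and the dilator minus constrictor value shifted by 0.026. This shift had no settled sign, at 0.11 within the arrays with low and -0.057 within those with high spike-in controls. Relative to the IgG mean this value was -0.024, -0.0083, -0.15 and 0.18 on IgG arrays 1 to 4 and -0.023, -0.058, 0.085 and 0.10 on anti-TIE1 arrays 1 to 4. The IgG mice alone spanned more than the treated ones, and the shift was within 1 SD of either group. No test was run on these averages because the genes were picked as a group. Only differences of these averages between arrays have a meaning, since intensities of different probe sets are not on a common scale.

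**Figure D3:**
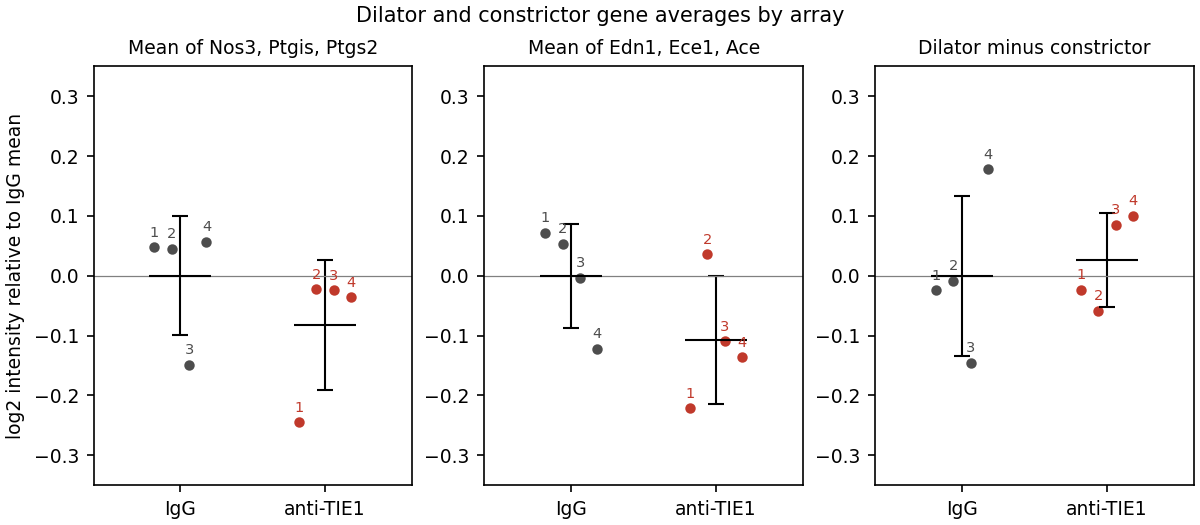
Average log2 intensity of the dilator genes (left), of the constrictor genes (middle) and their difference (right), each relative to the mean of the IgG mice; points are mice with replicate numbers, lines and bars are mean and SD (n = 4). The right panel shows IgG 3 and IgG 4 as the outermost points, at -0.15 and 0.18, with all treated mice between them.

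Immediate early and dissociation stress genes were followed because Ptgs2 and Edn1 are inducible. This list of 15 measured genes, with Fos, Egr1 and Atf3 among them, averaged 10.52 to 10.66 on IgG and 10.41 to 10.58 on anti-TIE1 arrays. Of the 15 genes 13 had lower and 2 higher means in anti-TIE1-treated mice, beside 51.8% lower over all probe sets. At an unadjusted p under 0.05 from limma there were 0. Across the 8 arrays, Edn1 had a Pearson r of 0.63 with the list (exact permutation p = 0.104, 0.207 adjusted over 2 relations) and a Spearman rho of 0.48 (exact permutation p = 0.243, adjusted 0.486). The r was 0.45 without anti-TIE1 3 and 4, the arrays farthest from the median of the list, and 0.85 and -0.24 within the parts of 4 arrays with low and high spike-in controls. For Ptgs2 the values were r = 0.23 (exact permutation p = 0.561, also 0.561 adjusted) and rho = 0.29 (exact permutation p = 0.501, also 0.501 adjusted), with 0.40 without the same arrays and 0.64 and -0.69 within the parts. Neither relation passed, and neither kept its sign in both parts.

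The wider pathways around these genes were read from 5 lists that hold 94 measured genes, the 6 tone genes included. None passed an adjusted p under 0.05 with limma, while at an unadjusted p under 0.05 there were 1 with a higher and 6 with a lower mean. This is 7.45% of them, beside the 5.32% of all probe sets. With each array left out in turn, an unadjusted p under 0.05 held in 3 of 8 fits for Ece1, Qdpr, Slco2a1 and Cpn1, in 4 for Tbxas1 and Nppc and in 5 for Agtr1b. Of the 88 genes that are not among the 6, 1 was higher and 5 were lower (6.82%).

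Of 6 measured endothelin genes, Edn1 and Ece1 included, 5 had lower means and 1 a higher one, with a median difference of -0.14. Over all probe sets 51.8% had a lower mean. Of the endothelin genes 3 of 6 exceeded the brightest background probe set on every array. Ece1 was the 1 past an unadjusted p under 0.05. Ednrb, the endothelial receptor that clears endothelin and is high in lung capillary EC, was at 11.08, 10.79, 11.17 and 11.29 on the IgG arrays and at 10.91, 11.01, 10.84 and 10.89 on the anti-TIE1 arrays. IgG 2 lay below all treated mice and the other IgG mice above them. Its difference was -0.17 (standard error 0.10, adjusted p = 0.956 from limma), -0.27 without IgG 2 and -0.098 without IgG 4.

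In the prostanoid list, 16 of 21 measured genes had lower and 5 higher means, with a median difference of -0.087. Over all probe sets 51.8% had a lower mean. Only 6 of the 21 genes exceeded the brightest background probe set on every array. Past an unadjusted p under 0.05, 2 were lower and 0 higher, beside 3.15% lower and 2.17% higher of all probe sets. Slco2a1, the prostaglandin transporter of lung endothelium, was at 9.95, 10.08, 10.26 and 10.24 in IgG-treated and 10.05, 9.88, 9.90 and 9.79 in anti-TIE1-treated mice. IgG 1 lay among the treated mice, and the other 3 IgG mice above all of them. The log2 difference was -0.23 (standard error 0.09, unadjusted p = 0.031, adjusted p = 0.93 from limma, exact permutation p = 0.0571). Tbxas1, thromboxane synthase, which makes the constrictor thromboxane in platelets, was at 7.70, 8.05, 8.17 and 7.32 on the IgG and 7.36, 7.46, 7.52 and 7.23 on the anti-TIE1 arrays. IgG 4 was below 3 of the treated mice. The unadjusted p was 0.030 and the adjusted p 0.93 from limma, and the exact permutation p was 0.114. The Tbxas1 signal exceeded the brightest background probe set on 2 of 8 arrays, both IgG, so no size of the difference is given. Of the 10 measured platelet markers 7 were lower at an unadjusted p under 0.05, beside 3.15% of all probe sets, and 0 passed after adjustment. IgG 4 was again the lowest IgG array, with a platelet list average of 8.40 among anti-TIE1 values of 8.31 to 8.49. The part of platelet RNA in the Tbxas1 values was not tested. Ptges2, a prostaglandin E synthase, had a difference of -0.28 (standard error 0.15, adjusted p = 0.954 from limma), which was -0.12 without anti-TIE1 2, and exceeded the brightest background probe set on 6 of 8 arrays.

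Among 25 measured genes of the nitric oxide pathway, 11 had higher and 14 lower means around a median difference of -0.015. The 1 gene past an unadjusted p under 0.05 (5.32% of all probe sets passed) was Qdpr, dihydropteridine reductase, which regenerates the cofactor tetrahydrobiopterin. It was at 8.95, 8.86, 8.91 and 8.94 in IgG-treated and 8.83, 8.72, 8.78 and 8.68 in anti-TIE1-treated mice, without overlap, as were 3.17% of all probe sets. The difference was -0.16 (standard error 0.07, unadjusted p = 0.033, adjusted p = 0.93 from limma), and the exact permutation p of 0.0286 is the smallest that 4 against 4 arrays can give. Cav1, the caveolar protein that binds and holds back the Nos3 enzyme, had a difference of -0.26 (standard error 0.14, adjusted p = 0.954 from limma), which lay between -0.39 and -0.18 with 1 array left out. Spr, which completes tetrahydrobiopterin synthesis, had one of 0.22 (standard error 0.23), and of 0.10 without IgG 2 and 0.41 without anti-TIE1 3.

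Of 17 measured renin-angiotensin and kinin genes, 11 had higher and 6 lower means, with a median of 0.012. Agtr1b, an angiotensin receptor, was at 7.004 ± 0.13 (SD, n = 4) in IgG-treated and 7.25 ± 0.15 (SD, n = 4) in anti-TIE1-treated mice (unadjusted p = 0.028, adjusted p = 0.924 from limma). Cpn1, a kinin-cleaving carboxypeptidase of plasma, averaged 6.97 ± 0.11 (SD, n = 4) in the IgG group. In the anti-TIE1 group it averaged 6.71 ± 0.23 (SD, n = 4), with an unadjusted p of 0.046 and an adjusted p of 0.932 from limma. Neither gene exceeded the brightest background probe set on any array, and no fold is given. Cpm, a peptidase that degrades kinins, had a difference of -0.14 (standard error 0.15), which was -0.029 without anti-TIE1 3. Xpnpep2, another such peptidase, exceeded the brightest background probe set on 3 of 8 arrays and had a difference of -0.084 (standard error 0.08), which was -0.042 without IgG 3.

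The 26 measured genes of other endothelial tone systems had 12 higher and 14 lower means and a median difference of -0.0054. Nppc, the C-type natriuretic peptide, a relaxing factor of endothelium, was at 7.41 ± 0.09 (SD, n = 4) in IgG-treated and 7.19 ± 0.13 (SD, n = 4) in anti-TIE1-treated mice (unadjusted p = 0.026, adjusted p = 0.921 from limma), and on no array above the brightest background probe set. Kcnn3, a calcium-activated potassium channel of endothelial hyperpolarization, was at 8.03, 8.38, 8.33 and 6.99 on the IgG arrays and at 7.43, 7.89, 7.12 and 7.70 on the anti-TIE1 arrays. Only IgG 1, 2 and 3 and anti-TIE1 2 exceeded the brightest background probe set, 4 of 8 arrays, so the size of the difference is uncertain. As measured it was -0.40 (standard error 0.29, adjusted p = 0.965 from limma), and -0.71 without IgG 4. P2ry2, a purinergic receptor that senses ATP released under flow, had a difference of 0.26 (standard error 0.15, adjusted p = 0.955 from limma), between 0.13 and 0.39 with 1 array left out.

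**Figure D4:**
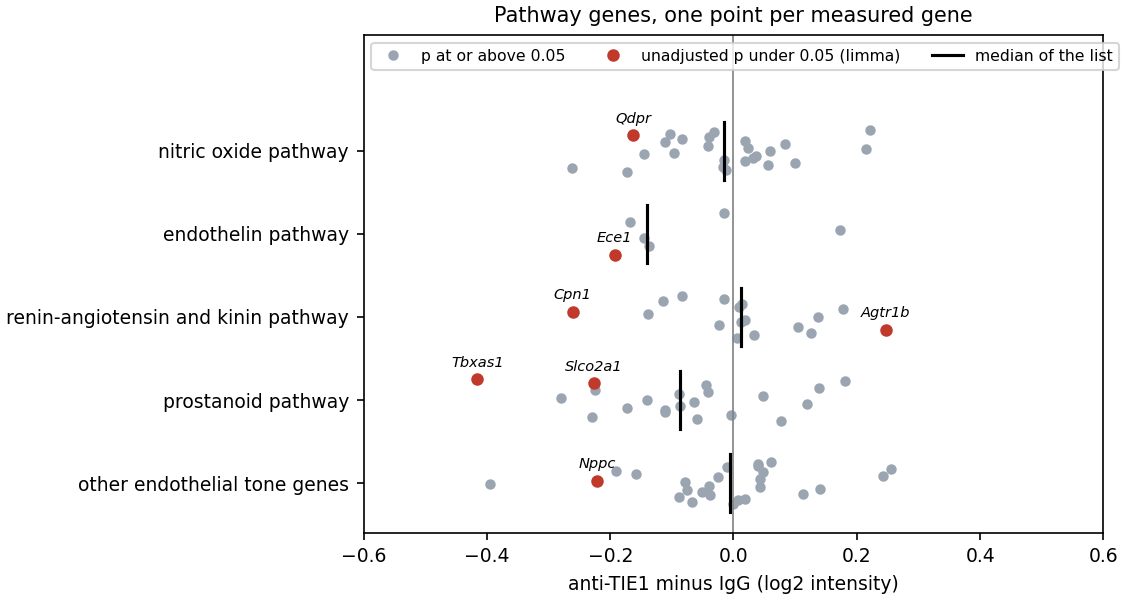
anti-TIE1 minus IgG difference (log2 intensity) of each measured gene in the 5 pathway lists; red points have an unadjusted p under 0.05 from limma and are named, grey points do not, and the black line is the median of the list, with dim genes such as Tbxas1 plotted as measured. The endothelin and prostanoid medians lie below 0, at -0.14 and -0.087, and the other medians close to it.

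Genes whose values followed each tone gene most closely over the 8 arrays were sought among 9694 named genes at or above the median level. They are the highest of many correlations and are given as a description without a p. Nos3 was most like Synrg (Pearson r = 0.96, Spearman rho = 0.88) and Vps54 (0.95 and 0.90). Edn1 was most like Mpc1 (r = 0.94, rho = 0.95) and Asb4 (0.94 and 0.76). For Ece1 the closest were Itga9 (r = 0.92, rho = 0.88), an integrin chain, and D8Ertd738e (0.91 and 0.90). Ace was followed most closely by Slc10a3 (r = 0.97, rho = 0.90) and Hey2 (0.96 and 0.95), the latter a Notch target of arterial endothelium. Ptgis was closest to Gpr157 (r = 0.96, rho = 0.90) and Rsbn1 (0.95 and 0.95). Ptgs2 was closest to Slc2a6 (r = 0.98, rho = 0.90) and Snai1 (0.94 and 0.88). No other tone gene appeared among these.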

How the data were processed

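RNA of sorted lung EC (CD31+, negative for CD45, LYVE1, PDPN, TER119 and DAPI) from 4 IgG-treated and 4 anti-TIE1-treated mice was hybridized to mouse Clariom S arrays, 1 mouse per array. The authors deposited intensities on a linear scale that they had normalized between arrays, by a method not given in the sources used here. Groups follow the sample titles, and the table held 0 columns of other samples.

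Log2 of the deposited intensities was fitted with limma (version 3.58.1, R 4.3.3; eBayes without trend, contrast anti-TIE1 minus IgG) over 22204 probe sets that are not controls, with Benjamini-Hochberg adjustment over all of them. Limma was tested on simulated data. Exact permutation and Mann-Whitney tests used scipy 1.17.1. Intensities carry no read depth, and the number of arrays limits the precision. Symbols come from the platform annotation, and pathway genes were also matched by gene ID through RefSeq names (GRCm38.p6). The brightest probe set stood for a gene.

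The members and lists were chosen with earlier results of these data known. Named pathway genes are those at an unadjusted p under 0.05, and otherwise the 2 with the largest difference per list at or above the median level of 7.54. Per gene, 2 most similar genes were named by Pearson r. Ptgs1 and Ednra were not analysed here, so each side holds 3 genes, and the relations planned for both genes with platelet and smooth muscle markers were not run. Alternatives were quantile normalization, median centring, 16 added before log2, bright probe sets only, a trended robust variance, weighted arrays, blocks by replicate number or by spike-in controls, values within the latter, and leaving out each array. Counts per pathway with an array left out were added after seeing the data.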

Additional observations from a re-analysis of the deposited data

Results flagged for a closer look

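The average of the prostanoid list on array IgG 2 was 7.78 (log2 intensity), apart from the other 3 IgG arrays, of which the nearest was at 7.81. The gap was 0.858 of the range of the 4 arrays, past Dixon's 95% critical value for a group of 4. It was the only one of 52 groups examined, and chance gives about 1 in 20.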

How the results depend on the processing

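The lower means of Ece1, Edn1 and Ptgis kept their sign with quantile normalization, median centring, array weights, 16 added before log2, within either level of spike-in controls and with any 1 array left out. The other settings leave a difference as it is and change only its p. No tone gene passed an adjusted p under 0.05 in any setting. Same-numbered mice did not deviate together (correlations of -0.050 to 0.0065, and 0 of 8 arrays closest to their own number). With the replicate number as a block 0 probe sets passed, and the unadjusted p was 0.0496 for Ptgis and 0.0571 for Ece1. Ace turned to -0.00095 with quantile normalization, -0.0044 with array weights and -0.061 within the low spike-in controls. Within the high ones Nos3 turned to -0.042 and Ptgs2 to 0.089, and the dilator minus constrictor shift was 0.11 within the low and -0.057 within the high ones. Of bright probe sets, 301 with higher and 340 with lower means had an unadjusted p under 0.05. The prostanoid median was -0.17 among these, where fewer genes are left, and -0.052 and -0.033 within low and high spike-in controls. The renin-angiotensin median was -0.061 and 0.067 within these, and that of other tone genes -0.044 and 0.018; the cause was not tested.

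Leaving out 1 array gave 0 to 18 probe sets, with 18 without IgG 4 and 1 without IgG 1 or anti-TIE1 4. The differences ranged from -0.23 to -0.15 for Ece1, -0.20 to -0.085 for Edn1, -0.32 to -0.14 for Ptgis, -0.012 to 0.076 for Nos3, -0.040 to 0.060 for Ace and -0.14 to 0.019 for Ptgs2. The dilator minus constrictor shift ranged from -0.023 to 0.085. List medians ranged from -0.038 to 0.015 for nitric oxide, -0.18 to -0.098 for endothelin, -0.011 to 0.032 for renin-angiotensin, -0.11 to -0.044 for prostanoid and -0.030 to 0.0074 for other tone genes. With 1 array left out, chosen after seeing the data, genes with a lower mean and an unadjusted p under 0.05 numbered 0 to 2 in the nitric oxide, 0 to 2 in the endothelin, 0 to 1 in the renin-angiotensin, 1 to 4 in the prostanoid and 0 to 3 in the other tone list. Those with a higher mean numbered 0 in the endothelin list and 0 to 1 in the others. Only 6 of 21 prostanoid, 5 of 17 renin-angiotensin and 3 of 6 endothelin genes exceeded the brightest background probe set on every array. For the nitric oxide list it was 14 of 25 and for the other tone list 12 of 26. Changes in these lists may be missed.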
